A study of Mus musculus with 21 samples.

Results

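Fatty acid and sterol synthesis genes were followed as a set of 28 members, chosen by symbol, out of 20394 genes listed in at least 1 of the 4 deposited tables. The fatty acid branch held 7 members (Fasn, Acaca, Acly, Scd1, Scd2, Elovl6 and Srebf1). The sterol branch held 21 (Srebf2, Hmgcs1, Mvk, Pmvk, Mvd, Idi1, Fdps, Fdft1, Sqle, Lss, Cyp51, Tm7sf2, Msmo1, Nsdhl, Hsd17b7, Ebp, Sc5d, Dhcr7, Insig1, Stard4 and Acat2). RNA was sequenced from mammary tumours and from sorted haematopoietic stem cells (HSC) of mice, all of the genotype MMTV-PyMT, in which the mammary tumour virus promoter drives a viral oncogene in mammary epithelium. Tumours came from sedentary and from physically active mice at week 12 and at week 18. HSC came from sedentary and from physically active mice at week 12, and at week 14 from sedentary recipients of cells from an active mouse, here called transplant HSC. Each of the 7 groups had 3 libraries, which the labels number as biological replicates without naming the animals or any pooling, so the p-values measure the spread between these libraries only.

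Fatty acid synthesis starts in the cytosol, where Acly cleaves citrate to acetyl-CoA, Acaca carboxylates it to malonyl-CoA and Fasn builds palmitate. Elovl6 elongates palmitate, and the desaturases Scd1 and Scd2 place the first double bond in the saturated product. Sterol synthesis runs from acetyl-CoA over mevalonate and squalene to cholesterol. The transcription factors SREBP1 (gene Srebf1) and SREBP2 (gene Srebf2) are held in the endoplasmic reticulum by Insig1 when sterols are plentiful and switch on many genes of both branches when they are not. Mammary epithelium and adipocytes both make fatty acids, and dividing cells need sterols for membranes.

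Values are normalised read counts, that is, reads of a gene divided by 1 size factor of the library. All 28 members were listed and tested in every comparison, and the lowest had 52 reads in its poorest library. Libraries held 20838963 to 28973775 reads in tumours and 16406889 to 72417315 in HSC. In each HSC group replicate 3 was the deepest, at 58500940 reads or more, against 24574563 or fewer in replicates 1 and 2. Active tumour replicate 3 of week 12 stood apart: its 12 adipocyte genes summed to 364694 (1047 to 82643 in the other 11 tumours), its 8 T cell genes to 12484 (210 to 438) and its 6 B cell genes to 17654 (29 to 144). None of the adipocyte or T cell genes was at 0 in any tumour. All 8 stem cell identity genes were detected in every HSC library. The active HSC column of replicate 2 differed between the deposited tables at 13105 of 13399 shared genes, so at most 1 of both can be that library, and main results that use it are given with either column.

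Compared per length, as reads per kilobase of annotated exon per 1000000 reads, Scd1, Scd2, Srebf1 and Acly were among the highest members in tumours. Scd1 had the highest mean of the 28 members in all 4 tumour groups, from 298.9 ± 120.2 (SD, n = 3) in sedentary tumours of week 12 to 757.4 ± 501.0 in active tumours of week 12. Srebf1 stood at 126.3 to 145.9 and Scd2 at 117.0 to 212.0 in the group means. Acaca at 8.7 to 19.6 and Elovl6 at 12.5 to 17.8 lay below sterol members such as Srebf2, at 35.8 to 41.0. The highest sterol member in any tumour group was Idi1, the isopentenyl diphosphate isomerase, at 46.1 in active tumours of week 18. Tm7sf2, a sterol reductase, was the lowest of the 28 in all 4, at 2.3 to 2.6.

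In HSC the order of the desaturases was the reverse. Scd2 was the highest of the 28 members in every HSC group, at 118.1 ± 13.3 (SD, n = 3) in sedentary and 170.3 ± 25.4 in transplant HSC. Scd1 ranked 28 in sedentary HSC, at 1.17 ± 0.87 on that scale, and 25 in transplant HSC, at 6.31 ± 5.65. The ratio of Scd1 to Scd2 per kilobase was 0.0055 to 0.0655 in the HSC libraries. In 10 of the 12 tumours it was 1.73 to 4.87. It was 0.435 in sedentary tumour replicate 1 of week 18 and 29.6 in active tumour replicate 3 of week 12. These neighbouring genes lie on chromosome 19 (GRCm38, GENCODE M21), Scd2 at chr19:44293674-44306864 and Scd1 at chr19:44394455-44407879. Fasn averaged 44.3 to 135.7 in the tumour groups and 90.5 to 110.0 in the HSC groups, and Acly 83.1 to 93.2 and 98.6 to 111.8. Tumours and HSC were extracted and normalised separately, so these levels stand side by side without a test.

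The members' promoters are shown because the sterol genes were higher side by side in several comparisons below. RefSeq (GRCm38.p6) held promoters for 22 of the 28, and Scd1, Scd2, Fdps, Fdft1, Sqle and Stard4 had none in that table. The 250 bases before each start were searched on both strands for CCAAT, the box bound by NF-Y, and for TCACNCCAC, a core form of the sterol regulatory element. The E-box CACGTG, which reads the same on both strands, was searched too. Matches of CCAAT and TCACNCCAC are in capitals below, where ATTGG is CCAAT on the other strand.
Mvd, chr8:122443423-122443522, minus strand: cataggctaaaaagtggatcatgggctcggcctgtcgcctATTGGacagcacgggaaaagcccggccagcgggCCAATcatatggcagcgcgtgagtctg
Mvk, chr5:114444169-114444268, plus strand: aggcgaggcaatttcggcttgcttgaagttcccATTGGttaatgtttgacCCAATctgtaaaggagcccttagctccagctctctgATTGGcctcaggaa
Hmgcs1, chr13:119690184-119690283, plus strand: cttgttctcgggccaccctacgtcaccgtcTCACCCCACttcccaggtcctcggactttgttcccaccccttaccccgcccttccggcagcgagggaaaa
Fasn, chr11:120824548-120824647, minus strand: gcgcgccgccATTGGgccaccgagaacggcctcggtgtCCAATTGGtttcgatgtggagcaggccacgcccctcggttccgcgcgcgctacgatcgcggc
Acly, chr11:100528001-100528100, minus strand: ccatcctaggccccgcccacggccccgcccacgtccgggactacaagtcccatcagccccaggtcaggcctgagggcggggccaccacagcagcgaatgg
Each line is 100 bases of upstream sequence, ending at the start site except for Hmgcs1, whose stretch runs from 167 to 68 bases before it. CCAAT was found in 16 of 20 promoter entries of the sterol branch (80.0%), in 3 of 7 of the fatty acid branch (42.9%) and in 33.8% of all 32851 entries. The Fasn promoter holds CCAATTGG, which counts once on each strand. TCACNCCAC was found in 1 of the 20 sterol entries, that of Hmgcs1, in 0 of the 7 fatty acid entries and in 1.1% of all entries. CACGTG was found in 4 of the 20 sterol entries (20.0%), in 0 of the 7 fatty acid entries and in 6.0% of all entries. Pmvk, Dhcr7 and Srebf1 have several entries each. A match here is a stretch of letters, and no binding was measured.

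At week 12 no member differed between active and sedentary tumours by limma with Benjamini-Hochberg adjustment over all genes, and 0.517% of all 19162 genes tested did. No member had an unadjusted limma p under 0.05, and edgeR and DESeq2 called none, with 1 member each at an unadjusted p under 0.05. Of all 19162 genes edgeR called 76 and DESeq2 208. The branch medians were 0.11 on the log2 scale for fatty acid members (4 of 7 higher) and 0.01 for sterol members (11 of 21 higher), where the median over all genes was 0.01. Scd1 was the one member whose groups did not overlap. It stood at 32912, 22497 and 50856 in sedentary tumours and at 58298, 51962 and 162108 in active tumours. Every active tumour was above every sedentary tumour, the lowest active one barely so. The log2 fold change was 1.24 ± 0.55 (SE) with an adjusted p of 0.97 by limma, and 4.36% of all genes were higher without overlap. Among the regulators the limma log2 fold changes were -0.24 for Srebf1, -0.02 for Srebf2 and 0.26 for Insig1, with adjusted p-values of 0.97 to 0.999.

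Active replicate 3 set much of the spread at week 12, in opposite directions for different members. Fasn was 19363, 17151 and 72937 in the active tumours against 42808, 15797 and 28278 in the sedentary ones. Acaca was 5469, 4189 and 14976 against 6204, 3099 and 6136. Active replicate 3 was the highest of all 12 tumours for Fasn, Acaca and Scd1. Scd2, by contrast, was 13378, 27192 and 6124 in active and 19167, 12336 and 19969 in sedentary tumours. Here active replicate 3 was the lowest of all 12, as it was for Srebf1 at 10537 and for 9 of the 21 sterol members. Fdps, which makes farnesyl diphosphate, was 998 in it against 1871 and 3580 in the other active tumours. Dhcr7, the last reductase of the pathway, was 807 against 1882 and 2590. This tumour is the one with the high adipocyte, T cell and B cell genes, and their part in these values was not tested. In bulk tissue fewer cells of a type and less RNA per cell cannot be told apart. Without that tumour the sterol median was 0.19 and 20 of 21 members were higher, again with no member called. Leaving out each tumour of week 12 in turn gave sterol medians of -0.195 to 0.188, with 6 to 20 of 21 higher. The lowest was that without active replicate 2, so the direction depended on the tumour left out. The 10 skeletal muscle genes, all lower in active tumours by the adjusted limma test, summed to 53850 to 117054 in sedentary and 292 to 1204 in active tumours of week 12.

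**Figure D1:**
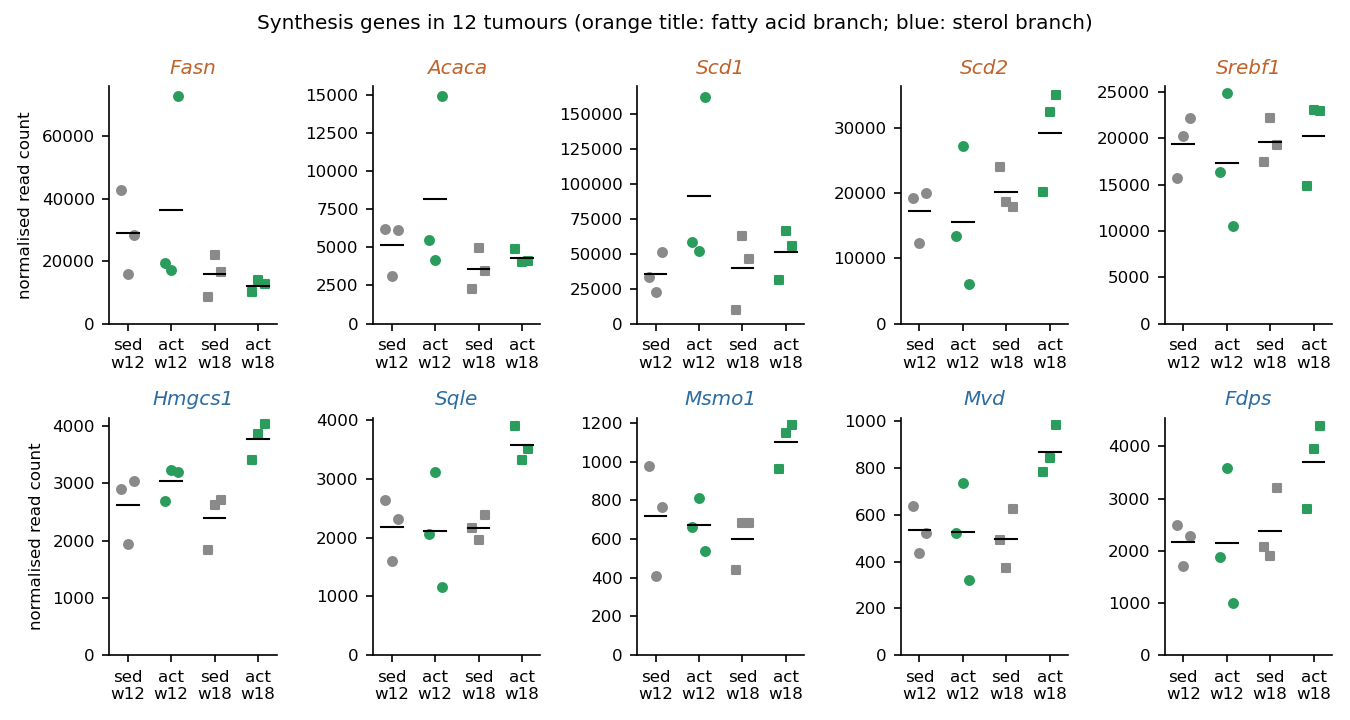
Normalised read counts of 5 fatty acid members (top) and 5 sterol members (bottom) in the 12 tumours, by activity (sed, sedentary; act, active) and week (w12, w18). Points are libraries and bars are group means. Fasn, Acaca and Scd1 peak in 1 active tumour of week 12, and all 3 active tumours of week 18 lie above the 3 sedentary ones for Hmgcs1, Sqle, Msmo1 and Mvd.

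At week 18 all 21 sterol members were higher in active than in sedentary tumours, with a median log2 fold change of 0.62, where 51.1% of all genes were higher and the median over all genes was 0.01. None passed the adjusted limma threshold, and neither did any other gene (0.0% of 18939 tested, 1131 at an unadjusted p under 0.05; edgeR called 0 genes and DESeq2 52). In 12 of the 21 every active tumour lay above every sedentary tumour, against 6.03% of all genes: Hmgcs1, Mvk, Mvd, Fdft1, Sqle, Cyp51, Msmo1, Nsdhl, Hsd17b7, Ebp, Sc5d and Stard4. They reach from the synthase that opens the mevalonate route to the late sterol enzymes. The fatty acid median was 0.35, with 6 of 7 higher and none without overlap. It was 0.04, with 4 of 7 higher, without sedentary replicate 1, and 0.21 without active replicate 3. Unadjusted p-values by limma were under 0.05 for 9 of the 28 members, and for 3 without active replicate 3.

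Msmo1, which oxidises the methyl groups of lanosterol intermediates, was 439, 682 and 683 in sedentary and 960, 1150 and 1189 in active tumours. Its limma log2 fold change was 0.89 ± 0.24 (SE), adjusted p = 0.80. Mvd, the mevalonate diphosphate decarboxylase, was 491, 373 and 624 in sedentary and 781, 844 and 983 in active tumours. Its change was 0.83 ± 0.24 (SE) by limma, adjusted p = 0.82. For both genes a clear gap separated the groups. Hmgcs1, the HMG-CoA synthase, was 1832, 2630 and 2710 in sedentary and 3411, 3868 and 4043 in active tumours. Stard4, a cholesterol carrier protein, was 931, 681 and 922 in sedentary and 1327, 1422 and 1657 in active tumours. Both were again separate.

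Sqle, the squalene epoxidase and a control point of the pathway, was singled out after its values were seen, as the member of smallest p. It was 2159, 1964 and 2387 in sedentary and 3905, 3312 and 3499 in active tumours, without overlap. The limma log2 fold change was 0.72 ± 0.16 (SE) with an adjusted p of 0.75. The authors' deposited table gave it a log2 fold change of 0.72 and an adjusted p of 0.0089, the single member under 0.05 there. The share of all genes under 0.05 in that table is not given here. DESeq2 on recovered reads also called 1 member, with 52 of 18939 genes called, and edgeR none.

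The regulators differed in size of change at week 18. Insig1 was 1192, 1461 and 1282 in sedentary and 1298, 2987 and 3130 in active tumours. Active replicates 2 and 3 were high, and replicate 1 fell among the sedentary ones. Its limma change was 0.81 ± 0.38 (SE), adjusted p = 0.82. Srebf2 was 5836, 5317 and 7374 in sedentary and 8139, 6670 and 7541 in active tumours, overlapping, with 0.28 ± 0.19. Srebf1 was 17434, 22167 and 19309 against 14897, 23030 and 22957, with 0.03 ± 0.24, also overlapping.

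Among the fatty acid enzymes at week 18, Scd2 was 23932, 18563 and 17855 in sedentary and 20154, 32339 and 34936 in active tumours, with overlap at active replicate 1. Fasn was 8470, 22116 and 16679 against 10107, 13874 and 12557, and was the single member of the 28 with a negative log2 fold change (-0.28 ± 0.39, adjusted p = 0.88 by limma). Active replicate 1 lay within the sedentary range for several members. Without it 20 of 21 sterol members and 4 of 7 fatty acid members did not overlap, against 10.8% of all genes. Without sedentary replicate 1, whose milk protein genes summed to 20327 against 191441 to 293018 in the other 5 tumours of week 18, it was 12 sterol members against 13.6% of all genes. Leaving out each tumour in turn gave sterol medians of 0.50 to 0.72 with all 21 higher each time. All 10 proliferation genes were higher in active tumours (median 0.44) and all 12 adipocyte genes lower (median -1.80), none called. Adipocyte sums were 1590 to 29977 in sedentary and 1047 to 4927 in active tumours. The part of either in the sterol values was not tested.

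**Figure D2:**
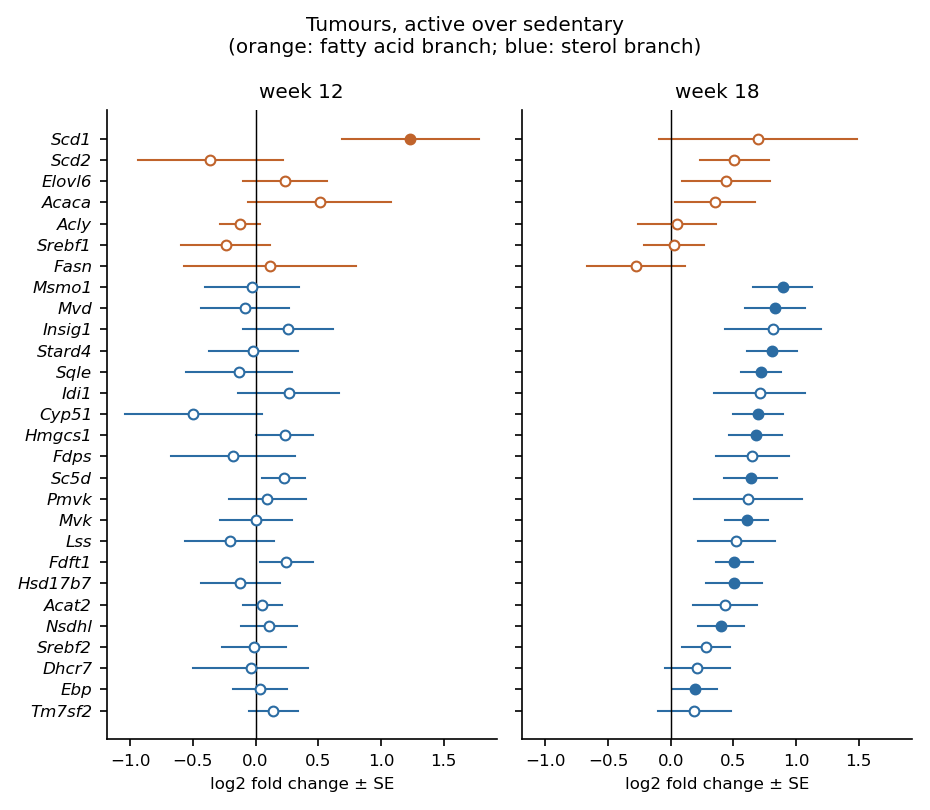
Limma log2 fold change with its standard error for each of the 28 members, active over sedentary tumours, at week 12 (left) and week 18 (right), n = 3 per group. Orange is the fatty acid branch and blue the sterol branch; filled points mark members whose groups do not overlap, 1 at week 12 and 12 at week 18.

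The activity effect was compared between the weeks by an interaction term over the 12 tumours. No member passed by limma (2 of 19241 genes did, 0.0104%), by edgeR or by DESeq2, and none had an unadjusted limma p under 0.05. Of all genes edgeR called 0 and DESeq2 174. The interaction was positive for all 21 sterol members, with a median of 0.52, and for 4 of 7 fatty acid members, with a median of 0.17. The largest sterol estimates were 1.19 ± 0.61 (SE) for Cyp51, the lanosterol demethylase, and 0.92 for Msmo1 and for Mvd. Adjusted limma p-values of the regulators were 0.80 to 0.87, with estimates of 0.26 for Srebf1, 0.29 for Srebf2 and 0.56 for Insig1. The effect at week 18 was therefore not shown to differ from that at week 12 for any single member.

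Between the weeks, no member was called in sedentary tumours (0.00526% of 19000 genes) or in active tumours (0.0156% of 19182) by limma, and none by edgeR or DESeq2. Of all genes DESeq2 called 81 in sedentary and 1683 in active tumours, and edgeR 0 in each. Unadjusted limma p-values were under 0.05 for 0 members and 707 of 19000 genes in sedentary tumours. In active tumours they were under 0.05 for 5 of 28 members and 3417 of 19182 genes, a similar share. In sedentary tumours the branch medians, week 18 over week 12, were -0.16 for fatty acid and -0.05 for sterol members. Only Dhcr7 was higher without overlap there, at 1680, 1413 and 1797 in week 12 and 1855, 1892 and 2317 in week 18 (4.39% of all genes). In sedentary tumours Insig1 was 3220, 1394 and 2302 at week 12, with a week 18 change of -0.74 ± 0.38 and overlap. Srebf1 and Srebf2 changed by 0.03 and -0.02.

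In active tumours 20 of 21 sterol members were higher at week 18, with a median of 0.43 against -0.03 over all genes. Hmgcs1, Mvd, Fdft1, Sqle and Msmo1 did not overlap, where 12.1% of all genes were higher without overlap. Sqle was 2064, 3119 and 1155 at week 12, and its change was 0.87 ± 0.33 (SE), adjusted p = 0.24 by limma. Mvd was 520, 735 and 321 at week 12, with 0.80 ± 0.31 and an adjusted p of 0.24. Fasn was lower: each active tumour of week 18 was below each of week 12, with a change of -1.26 ± 0.59 (SE), adjusted p = 0.29 by limma, and 12.7% of all genes were lower without overlap. Of the regulators, Srebf1 gave 0.29, Srebf2 0.27 and Insig1 -0.18. The fatty acid median was -0.06, and 0.27 without active replicate 1 of week 18. The 12 adipocyte genes were all lower at week 18 (median -4.97, sums of 15830 to 364694 at week 12), and their part was not tested.

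The branches were set against each other within each tumour as the mean log2 level of the 7 fatty acid members minus that of the 21 sterol members. At week 12 this difference was 3.22, 3.21 and 3.54 in sedentary and 3.36, 3.09 and 4.07 in active tumours. At week 18 it was 2.85, 3.62 and 3.13 in sedentary and 2.77, 3.02 and 2.87 in active tumours. The groups overlapped at both weeks. The active groups differed from each other throughout, since all 3 tumours of week 18 lay below the 3 of week 12. Sterol means alone were 10.40, 10.81 and 10.89 in active and 10.01, 10.09 and 10.30 in sedentary tumours of week 18, without overlap. Fatty acid means were 13.18, 13.83 and 13.76 against 12.86, 13.70 and 13.43, with overlap.

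The branch difference was highest in the tumour with the most adipocyte RNA (4.07, adipocyte sum 364694) and lowest in the tumour with the least (2.77, sum 1047). The 4 tumours with the lowest adipocyte sums, 1047 to 4927, had the 4 lowest differences, from 2.77 to 3.02. All active tumours of week 18 are among them, so group and adipocyte sum cannot be told apart there. The tumour with the second-highest sum, active replicate 1 of week 12 at 82643, had 3.36. Sedentary replicate 3 of week 12 had 3.54 at 38306, and sedentary replicate 2 of week 18 had 3.62 at 29977. The part of adipocyte RNA in the difference was not tested. Fatty acid members also spread more over the tumours than sterol members. The highest over the lowest tumour was 17.4 for Scd1, 8.61 for Fasn and 6.66 for Acaca, and 2.21 to 5.71 for the other fatty acid members. It was 1.48 for Ebp, a sterol isomerase, to 4.39 for Fdps in the sterol branch.

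**Figure D3:**
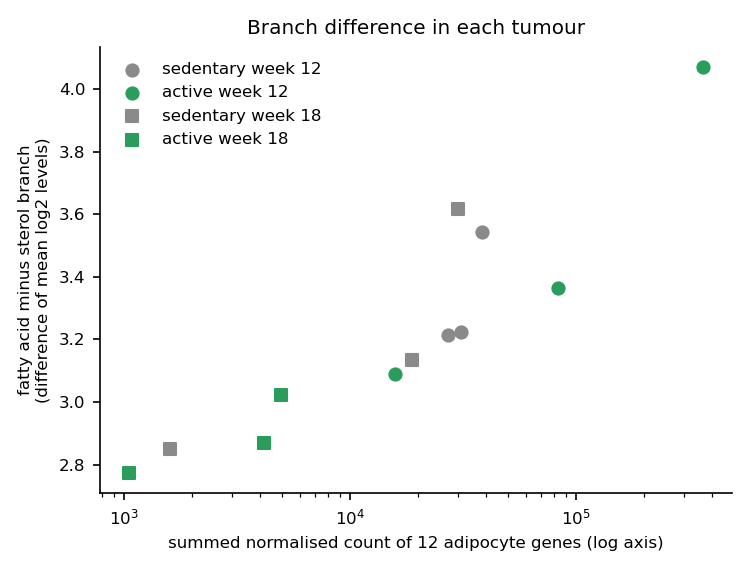
Difference of mean log2 levels, fatty acid branch minus sterol branch, in each of the 12 tumours (vertical axis) against the summed normalised count of 12 adipocyte genes (log axis). The tumour with the highest sum, 364694, has the highest difference, 4.07, and the one with the second-highest sum, 82643, lies at 3.36. The active tumours of week 18 lie between 2.77 and 3.02.

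In HSC of active against sedentary mice no member was called by limma, and no gene was (0.0% of 13513, 1252 at an unadjusted p under 0.05; edgeR called 0 genes and DESeq2 257, no member among them). Unadjusted limma p-values were under 0.05 for 7 members, and for 0 with the other column of active replicate 2, without active replicate 1 or without sedentary replicate 2. All 21 sterol members were higher in active HSC, with a median of 0.39, where 50.5% of all genes were higher. With the other column of active replicate 2 it was 20 of 21, with a median of 0.23. The fatty acid median was 0.11, with 6 of 7 higher, and 0.17 with the other column. Without active replicate 1 it was -0.01, with 3 of 7 higher. Higher without overlap were Mvk, the mevalonate kinase, Lss, which forms lanosterol, Sc5d, a sterol desaturase, and Scd1, against 10.4% of all genes. Lss was 923, 1101 and 1293 in sedentary and 1569, 1491 and 1426 in active HSC. Scd1 was 77, 98 and 281 in sedentary and 714, 301 and 334 in active HSC. The active libraries were above the sedentary ones for both, with a narrow gap for Scd1, whose limma change was 1.68 ± 0.59 (SE), adjusted p = 0.475. With the other column of active replicate 2 the groups overlapped for Scd1, Lss and Mvk, and Sc5d alone stayed separate, against 3.2% of all genes. The regulators gave 0.11 for Srebf1, 0.15 for Srebf2 and 0.40 for Insig1, each with overlap.

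The difference in sterol members between active and sedentary HSC was seen in replicates 1 and 2, the libraries of lower depth. The labels also name the replicate 3 libraries in another style, so depth and other differences between these libraries cannot be told apart. In replicates 1 and 2, with the main column of active replicate 2, all 21 were higher, with a median of 0.52. No such median was taken with the other column. In replicate 3 alone, the deep pair, 7 of 21 were higher and the median was -0.04. Idi1 shows it: sedentary values were 3697, 3868 and 4870, active values 4439, 5724 and 4548. The deep sedentary library was the highest sedentary one and lay above active replicates 1 and 3. The 9 neutrophil genes summed to 2663 to 3260 in sedentary HSC and to 14361, 113514 and 4328 in active HSC. The second active value is the column of uncertain identity. In the other column the sum was 3360, on the scale of the other HSC comparison. On that scale active replicates 1 and 3 stood at 15644 and 4796. The part of the neutrophil genes was not tested.

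In transplant against sedentary HSC, Fdps and Mvd rose, 2 of the 28 members. Transplant HSC came from week 14 and sedentary HSC from week 12, so week, transplantation and the donor's activity cannot be told apart. In that comparison 11.6% of 13348 genes were called by limma, and 7.93% as higher, a share that 2 of 28 members does not exceed. Fdps (chr3:89093588-89101959, minus strand) was 3222, 2729 and 3606 in sedentary and 7045, 6091 and 6176 in transplant HSC. The log2 fold change was 1.02 ± 0.14 (SE), adjusted p = 0.0166 by limma. Mvd (chr8:122433601-122443422, minus strand; its promoter is shown above) was 804, 777 and 1106 in sedentary and 2331, 2050 and 1617 in transplant HSC, with 1.16 ± 0.21 (SE), adjusted p = 0.0271 by limma. Every transplant library was above every sedentary library for both. These enzymes act near each other on the way from mevalonate to farnesyl diphosphate. Part of Fdps shares exons on the same strand with the gene model Gm43738, and how such reads were counted is not given in the sources used here.

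The other sterol members were higher too, but did not pass limma. Of the 21, 20 were higher, with a median of 0.61, and 13 did not overlap (20.3% of all genes). Tm7sf2 was 125, 145 and 232 in sedentary and 556, 464 and 268 in transplant HSC, a change of 1.34 ± 0.36 (SE), adjusted p = 0.0648 by limma, and shares exons with Vps51. Insig1 was 1527, 1584 and 2067 against 3657, 2551 and 2772, a change of 0.79 ± 0.20 (SE), adjusted p = 0.0561 by limma. Transplant replicate 1 was the highest library for both. Srebf2 was 7861, 9126 and 10308 against 11312, 9392 and 8800, with overlap and a change of 0.11. Ebp had the single negative value of the branch, -0.01.

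In the fatty acid branch limma called no member in transplant against sedentary HSC, and the median was 0.18. Of the 7 members edgeR and DESeq2 called 2 each, where they called 2569 and 3187 of all 13348 genes. Scd2 was 17306, 17996 and 21035 in sedentary and 30624, 22621 and 27908 in transplant HSC, without overlap, with 0.52 ± 0.16 (SE) and an adjusted p of 0.0876 by limma. Scd1 was 84, 107 and 308 against 1797, 604 and 281. Its largest value was in transplant replicate 1, and the deep libraries of replicate 3 were in reverse order. Srebf1 was 4198, 4224 and 4519 against 5511, 4725 and 4475, with overlap and 0.18. Fasn gave -0.11, Acaca -0.12 and Elovl6 -0.03, all with overlap.

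The count of called members in this comparison depended on the test. It was 12 by edgeR and 16 by DESeq2 on recovered reads, which called 2569 and 3187 of all 13348 genes. It was 0 without any one of sedentary replicates 1 and 2 or transplant replicates 1 and 2, where 237 to 481 genes were called. Here too replicate 3 differed from the rest. In replicates 1 and 2 alone 20 of 21 sterol members were higher with a median of 0.89. There 5 members were called, and 1944 of all 13255 genes. In replicate 3 alone 14 of 21 were higher with a median of 0.09. Fdps was higher by 0.78 and Mvd by 0.55 in that deep pair, and Idi1 by 0.07. All 9 neutrophil genes rose in transplant HSC by the adjusted limma test (sums of 2906 to 3570 in sedentary and 30422 to 33676 in transplant HSC), of which Retnlg was at 0 in the 3 sedentary libraries. All 8 megakaryocyte and erythroid genes tested were higher, 3 of them called by limma (1059 of 13348 genes were called higher). They summed to 1921 to 3681 in sedentary and to 18558, 12920 and 6677 in transplant HSC. Of 6 lymphoid priming genes 5 were lower, 4 of them called by limma (494 of 13348 genes were called lower). The part of these gene lists in the sterol values was not tested.

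**Figure D4:**
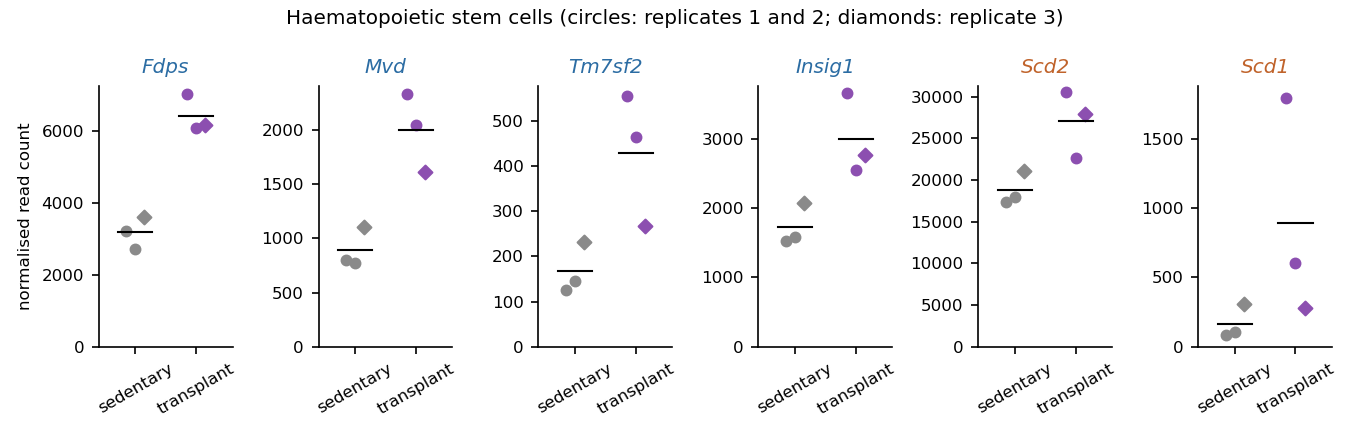
Normalised read counts of 4 sterol members (blue titles) and 2 fatty acid members (orange titles) in sedentary and transplant HSC. Circles are replicates 1 and 2, diamonds the deeper replicate 3, bars the group means. Fdps, Mvd, Tm7sf2, Insig1 and Scd2 do not overlap between groups, while the diamonds of Scd1 lie at 308 in sedentary and 281 in transplant HSC.

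In transplant against active HSC no member was called by limma (0.0513% of 13633 genes were) or edgeR. An unadjusted limma p under 0.05 was reached by 2 of 28 members and by 2422 of 13633 genes. It was reached by 0 members with the other column of active replicate 2 or without active replicate 2, active replicate 3 or transplant replicate 1. With the replicate number as a block or without transplant replicate 3 it was reached by 7 members, and by 2832 and 2752 genes. These groups share libraries with the comparisons above, so the values stand side by side and are not independent of them. Week, transplantation and the activity of the host differ together here and cannot be told apart. The sterol median was 0.36 with 20 of 21 higher, and 0.24 with the other column of active replicate 2. Without transplant replicate 1 it was 0.17 with 18 of 21 higher. Idi1, Fdps, Sqle, Msmo1 and Stard4 did not overlap, where 13.1% of all genes were higher without overlap. With the other column Fdps, Sqle and Stard4 did not, against 2.7% of all genes. Fdps was 5406, 3034 and 3576 in active and 7052, 6102 and 6177 in transplant HSC, a limma change of 0.73 ± 0.24 (SE), adjusted p = 0.23. The authors' deposited table gave Fdps an adjusted p of 0.0264 and Mvd 0.0359. The share of all genes under 0.05 in that table is not given here. DESeq2 on recovered reads called 2 members, and 1107 of all 13633 genes. Transplant replicate 1 was the highest of the 6 libraries for 20 of the 21 sterol members.

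The fatty acid median in this comparison was 0.03, and 0.07 with the other column. It was -0.22, with 1 of 7 higher, without active replicate 2, and -0.06 without transplant replicate 1. Fasn was 32811, 31754 and 41142 in active and 26989, 29732 and 29702 in transplant HSC, lower without overlap (12.1% of all genes), with a change of -0.28 ± 0.14 (SE) and an adjusted p of 0.351 by limma. With the other column of active replicate 2 its groups overlapped. The regulators gave 0.03 for Srebf1, -0.08 for Srebf2 and 0.56 for Insig1, each with overlap. The branch difference per library was 2.22, 2.02 and 2.29 in active and 1.76, 1.85 and 1.88 in transplant HSC, so that the transplant values lay below the active ones with this column of active replicate 2. With the other column that library stood at 1.47, below every transplant value, and the groups overlapped. With sedentary HSC on the joint scale it was 1.93, 2.06 and 2.13 there, also above every transplant value.

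**Figure D5:**
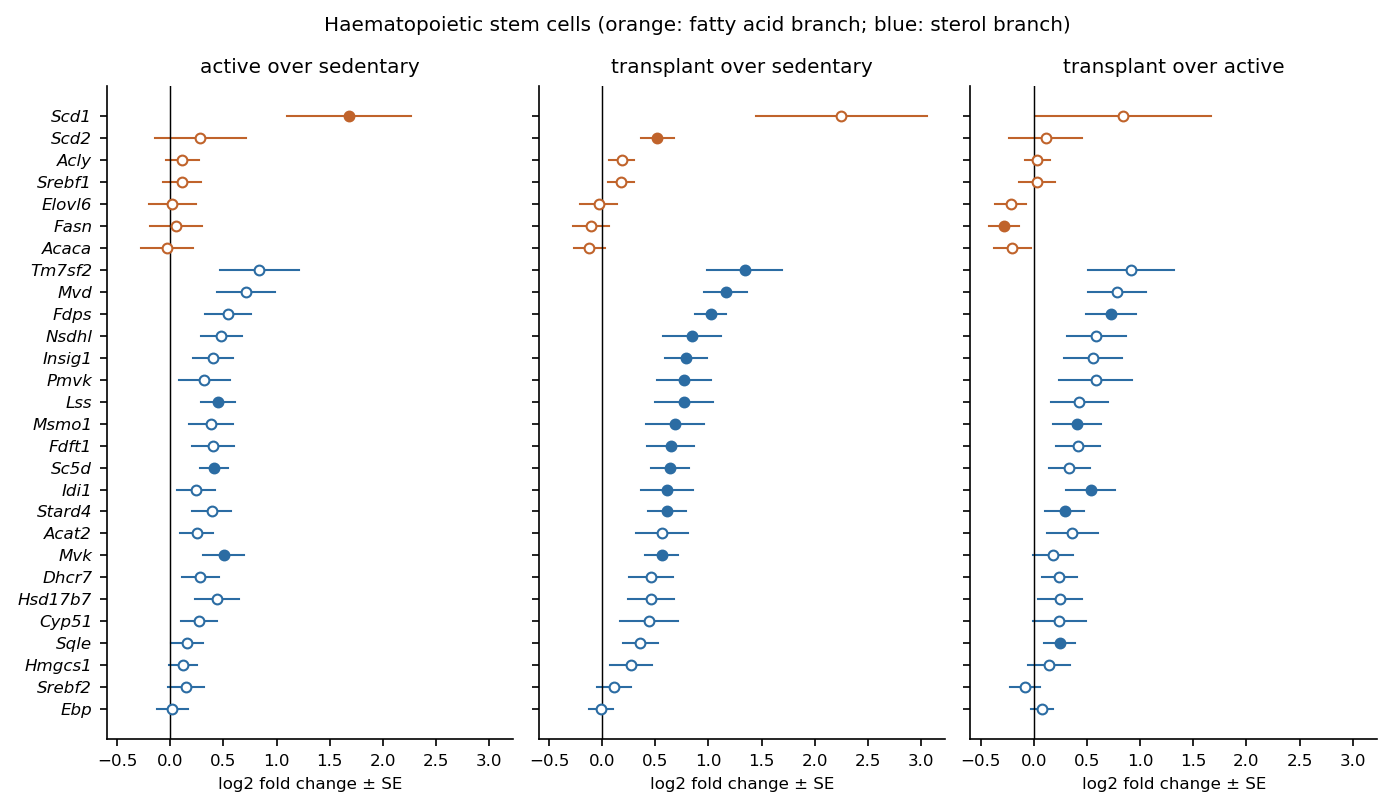
Limma log2 fold change with its standard error for the 28 members in the 3 HSC comparisons, n = 3 per group; filled points mark members whose groups do not overlap. Sterol members (blue) are higher in 21, 20 and 20 of 21 cases from left to right, and fatty acid members other than Scd1 and Scd2 lie between -0.28 and 0.18. The comparisons share groups.

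Other lipid genes were read from 4 further lists: 22 for fatty acid and glyceride synthesis, 16 for sterol synthesis, uptake and SREBP control, 9 for sterol efflux and LXR targets and 12 for fatty acid oxidation. None was called by limma in the tumour comparisons. At week 18 Mlxipl, which encodes the carbohydrate response factor ChREBP, was named by its small p. It averaged 210.4 ± 49.2 (SD, n = 3) in sedentary and 85.3 ± 35.7 in active tumours, without overlap, a change of -1.35, adjusted p = 0.82 by limma. In the sterol list 13 of 16 were higher at week 18 (median 0.17), and in the oxidation list 12 of 12 were lower (median -0.23).

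The remaining tumour comparisons named further genes by smallest p. At week 12 they were Cpt1b, the muscle form of carnitine palmitoyltransferase, with -3.10 and an adjusted p of 0.97, and the sterol exporter Abca1 with 0.69, by limma. For the interaction they were the desaturases Fads1 and Fads2, with 1.58 and 1.59. In sedentary tumours the acyltransferase Dgat2 was named, with -1.68, and in active tumours Mlxipl with -2.30 and Gpam, which starts glyceride synthesis, with -1.23, week 18 over week 12. None passed.

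In transplant against sedentary HSC 3 of the 52 of these genes tested rose by the adjusted limma test (5.77%, against 7.93% of all genes) and none fell. Dgat1 and Dgat2, which complete triglyceride synthesis, rose from 622.5 ± 93.9 to 1093 ± 106 (SD, n = 3) and from 941.7 ± 209.2 to 2477 ± 801, with log2 fold changes of 0.82 and 1.37 and adjusted p-values of 0.0302 and 0.0364 by limma. Apoe, a lipoprotein component, rose from 115.0 ± 8.6 to 226.9 ± 60.7, adjusted p = 0.0421 by limma. In active against sedentary HSC the smallest p-values were those of Dgat2 (1.21) and Abca1 (1.31), and in transplant against active HSC those of Acacb, the second acetyl-CoA carboxylase (0.63), and Dgat1 (0.58), all without overlap and none called.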

How the data were processed

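RNA was sequenced in 12 tumour and 9 HSC libraries with a stranded mRNA kit, per the labels' protocols. The genome build mm10 comes from the submitters' processing notes; aligner and counter are not given in the sources used here. The authors deposited 4 tables of normalised signal with their log2 fold changes, p-values and a test score. All values were whole multiples of 1 step per column (tolerance 0.02), so the deposited signal is gene counts divided by 1 factor per library. These reads were recovered for 100% of values.

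limma 3.58.1 in R 4.3.3 was run on log2(value + 1), leaving out genes whose mean was under 1 in both groups, with Benjamini-Hochberg adjustment over all genes and a threshold of 0.05. Fold changes are on that scale, which understates low genes. edgeR 4.0.16 and DESeq2 1.42.0 on recovered reads were alternatives. Tumour tables shared 1 scaling. The transplant against sedentary comparison joined recovered reads of both HSC tables on symbols (13399 shared genes), scaled by median ratios. Procedures were tested on simulated data. "Higher" without a test means a positive log2 fold change, and "called" means past the threshold.

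Members and gene lists were chosen with earlier results of these data known. All 28 members are named: with fold change and p where called, where groups do not overlap and the change is among the 3 largest of the branch, or as branch regulators; otherwise by values, range or count. Genes of other lipid lists are named where called (at most 5) or as the 2 of smallest p. Some genes that this rule names are not reported here. Levels per kilobase used GENCODE M21 exon lengths. 10 members share exons with another annotated gene, and a strand setting for counting is not given in the sources used here. Same-numbered libraries deviated together at week 18 (correlations of 0.164, 0.159 and 0.139) and in transplant against active HSC (0.105, 0.116 and 0.318). Their numbers were treated as possible pairs there from the data alone, since no label gives a pairing. The main limma fits were unpaired, and a replicate block was an alternative. Figures used matplotlib.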

Additional observations from a re-analysis of the deposited data

How the results depend on the processing

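The alternatives were other pseudocounts and filters, TMM scaling, edgeR, DESeq2, eBayes with trend and robust options, a replicate block, the spread of all 12 tumours, HSC replicates 1 and 2 only, the other column of active HSC replicate 2, and each library left out. DESeq2 called 1 member in tumours of week 18 and 2 in transplant against active HSC, where it called 52 and 1107 of all genes. In transplant against sedentary HSC the count of called members was 4 with a pseudocount of 10, 12 by edgeR, 16 by DESeq2 and 11 with trend and robust options. Of 13348 genes 2114, 2569, 3187 and 2778 were called in that order. In replicates 1 and 2 only the count was 5, with 1944 of 13255 genes called and a sterol median of 0.885. With 1 library left out it was 0 to 3, with 237 to 1674 genes called. With the replicate block the count of called members was 0, with 99 genes called. There the numbers do not pair the libraries (correlations of -0.113, 0.156 and 0.049). In the 2 comparisons whose same-numbered libraries deviated together the replicate block called 0 members, as without it. Leaving out 1 library, the sterol median of the interaction ran from 0.379 to 0.807 and the fatty acid median of active tumours between weeks from -0.295 to 0.266. Counts of called members and branch medians were checked for staying within 1.5 times the count or within the spread between replicates. So did 228 of 237 values under the other alternatives and 192 of 198 with 1 library left out. Counts of 0 that stayed 0 are among them, and the main count was 0 in every comparison but transplant against sedentary HSC. A median could change sign within that spread, as that of sterol members did at week 12. Counts of sterol members without overlap were run without each library as an addition chosen after seeing the data, and 12 of them moved by over 1.5 times. With the other column of active HSC replicate 2 these counts were 1 in active against sedentary and 3 in transplant against active HSC. The cause of these changes was not tested. The lowest member had 52 reads in its poorest library, and the part of depth was not tested.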
